A study of Mus musculus with 6 samples.

Results

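Transfer RNAs (tRNAs) carry amino acids to the ribosome, and their cleavage releases stable small RNAs called tRNA-derived small RNAs (tsRNAs). Fragments that keep the 5' end of the tRNA, cut in or before the anticodon loop, are among the most abundant small RNAs of mature mouse sperm, and part of them is gained while sperm pass through the epididymis. The 5' fragments of valine, histidine and lysine tRNAs are described here. They are the 6 rows of the deposited tsRNA table, of 124 in all, whose names begin with tRNA-Val, tRNA-His or tRNA-Lys and end in the 5' class. Of these, 3 belong to valine (anticodons CAC, AAC and TAC), 1 to histidine (GTG) and 2 to lysine (CTT and TTT). The anticodon decides which codons a tRNA reads. Val-CAC reads GUG, Val-AAC reads GUU and GUC once its first base is inosine, and Val-TAC reads mainly GUA. His-GTG reads both histidine codons, Lys-CTT reads AAG and Lys-TTT reads mainly AAA. Histidine tRNA differs from the others in an added guanosine at its 5' end, so that its 5' fragments begin with that base when they are complete.

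Small RNA of ripe sperm, taken from the cauda or tail of the epididymis where they are stored, was compared between 3 samples of mice made depressed by stress and 3 samples of normal mice. All mice were 8-week-old males of the C57BL/6 strain. No genetic change, drug or type of stress is named in the labels. The labels do not say whether the samples came from separate or pooled animals. A p-value here thus speaks to the variation among these 6 samples, part or all of which may be technical. For limma that variation is pooled over all tested features, in part outside Glu and Gly and wholly as deposited. A deposited limma p-value therefore does not measure the spread of the fragment itself. A change here is a change of a fragment's part of the sequenced tsRNA signal. In such bulk samples, fewer cells that carry a fragment and less of it per cell cannot be told apart.

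The values are RPM, scaled so that the tsRNA table sums to 1000000 in each sample. Fragments of tRNA-Glu and tRNA-Gly made up 95.5% to 96.7% of that sum in stress samples and 94.5% to 97.2% in normal samples. The remainder was 33024 to 45218 RPM in stress samples and 27843 to 54511 RPM in normal samples, so small shifts of Glu and Gly move every other value. For this reason each fragment is given as deposited and as a percentage of the signal outside Glu and Gly. The size of the libraries is not recorded in the tsRNA table. Steps between low values gave an estimate of 1824773 to 2756214 tsRNA reads in stress samples and 1149648 to 2339337 in normal samples. At that estimate the scarcest of the 6 fragments, Val-TAC, rested on 203 to 256 reads in stress samples and 108 to 209 reads in normal samples. Normal replicate 3 stood apart, with 2.67 miRNA reads for each estimated tsRNA read, against 0.367 to 0.835 in stress samples and 0.476 to 0.535 in the other normal samples. In that sample only 16 of 52 low values were whole multiples of the step, the fewest of any sample. Its estimated depth, and so this ratio, may be off by a whole factor.

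Outside Glu and Gly, the Val, His and Lys 5' fragments formed most of the signal. Together they took 65.0%, 67.7% and 67.7% in stress replicates 1 to 3, against 58.1%, 59.5% and 50.7% in normal replicates 1 to 3. The stress samples all lay above the normal samples, at 66.8% ± 1.54 in stress and 56.1% ± 4.72 in normal (SD, n = 3 each, exact permutation p = 0.1, two-sided). That is the smallest p that 3 samples against 3 allow, and it was 0.42 after Benjamini-Hochberg adjustment over the 21 exact tests made, which is the lowest adjusted p of any of them. Of all tsRNA signal, the 6 fragments took 2.62% ± 0.415 in stress and 2.30% ± 0.578 in normal samples, with overlap (exact permutation p = 0.5, n = 3 each). Without normal replicate 2 this last difference was −0.00797 percentage points. By mean level, Val-CAC, His-GTG and Val-AAC were the 3 most abundant features outside Glu and Gly. Lys-CTT was the fifth in that order, Lys-TTT the 18th and Val-TAC the 23rd.

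**Figure D1:**
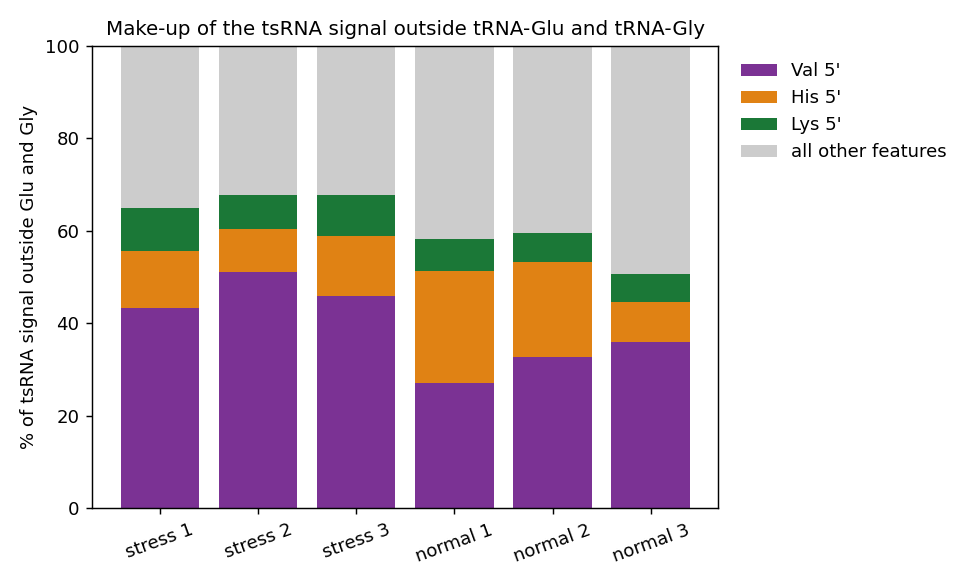
Percentage of the tsRNA signal outside tRNA-Glu and tRNA-Gly (vertical axis) taken by Val, His and Lys 5' fragments and by all other features in each of the 3 stress and 3 normal samples (horizontal axis). Val takes 43.4% to 51.0% in stress samples and 27.1% to 36.0% in normal samples, while His is widest in normal replicates 1 and 2.

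Valine fragments held the largest part of this signal. Val 5' fragments took 43.4%, 51.0% and 45.9% of the signal outside Glu and Gly in stress replicates 1 to 3, against 27.1%, 32.7% and 36.0% in normal replicates 1 to 3. Every stress sample was above every normal sample, and the difference of 14.8 percentage points exceeded the SD of either group (3.90 in stress, 4.495 in normal; exact permutation p = 0.1, n = 3 each, adjusted p = 0.42). It lay between 12.4 and 16.8 points whichever sample was left out. As a share of all tsRNA signal the groups overlapped, with 1.71%, 2.31% and 1.51% in stress and 1.16%, 0.910% and 1.96% in normal samples (exact permutation p = 0.3, n = 3 each). Normal replicate 3 was the normal sample that reached into the stress range.

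Val-CAC, the most abundant of the 6, had 11980.3, 16356 and 10692 RPM in stress replicates 1 to 3, against 8109, 6425 and 13553 RPM in normal replicates 1 to 3. As deposited the groups overlapped through normal replicate 3 alone. With Glu and Gly left out, Val-CAC took 30.4%, 36.2% and 32.4% in stress samples, against 18.9%, 23.1% and 24.9% in normal samples, where the groups did not overlap. The mean was 1.48 times the normal mean on that scale (33.0% ± 2.94 in stress and 22.3% ± 3.05 in normal, SD, n = 3 each). Its log2 fold change in limma was 0.57 ± 0.21 (SE) there and 0.52 ± 0.23 as deposited, and it did not pass the threshold of 0.05 on either scale (adjusted p = 0.30 and 0.33, unadjusted p = 0.026 and 0.022). The SE follows a trend of spread with level over all tested features. As deposited it is the trend value alone, without weight on the spread of Val-CAC itself. Without that trend the deposited values gave 0.52 ± 0.41 (SE, limma adjusted p = 0.62). Without normal replicate 3 the deposited values gave 0.83 with a limma adjusted p of 0.028, which is past the threshold. That p also rests on the trend and not on the spread of Val-CAC. Without normal replicate 2 they gave 0.29 and without stress replicate 2 they gave 0.35 (limma adjusted p = 0.70 and 0.77). Outside Glu and Gly, leaving out normal replicate 3 gave 0.65 (limma adjusted p = 0.12).

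Val-AAC, the other common valine acceptor, had 5015, 6597 and 4369 RPM in stress samples, against 3423, 2626 and 6000.2 RPM in normal samples. Its share outside Glu and Gly was 12.7%, 14.6% and 13.2% in stress samples, against 7.98%, 9.43% and 11.01% in normal samples. The pattern was that of Val-CAC, with overlap as deposited through normal replicate 3 and none after Glu and Gly were left out. The log2 fold change was 0.52 ± 0.22 (SE) outside Glu and Gly and 0.47 ± 0.31 as deposited (limma adjusted p = 0.33 and 0.54). The deposited value was 0.81 without normal replicate 3, 0.21 without normal replicate 2 and 0.31 without stress replicate 2 (limma adjusted p = 0.072, 0.76 and 0.77). Val-TAC, the rare valine acceptor, had 107, 111 and 85.9 RPM in stress samples, against 103, 49.1 and 93.5 RPM in normal samples. Its share outside Glu and Gly was 0.272%, 0.246% and 0.260% in stress samples, against 0.241%, 0.176% and 0.172% in normal samples, without overlap but with a narrow gap to normal replicate 1. Its log2 fold change was 0.42 ± 0.29 on that scale and 0.36 ± 0.70 as deposited (SE, limma adjusted p = 0.47 and 0.84). The deposited value was 0.56 without normal replicate 1 and 0.04 without normal replicate 2 (limma adjusted p = 0.79 and 0.96).

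Within valine the balance of the anticodons varied little between samples. The ratio of Val-CAC to Val-AAC was 2.39, 2.48 and 2.45 in stress samples, against 2.37, 2.45 and 2.26 in normal samples, while each of them varied about 2.5-fold over the 6 samples as deposited. Val-CAC made up 70.5% ± 0.438 of the valine 5' signal in stress and 69.8% ± 0.814 in normal samples (SD, exact permutation p = 0.3, n = 3 each). Val-TAC made up 0.559% ± 0.0729 in stress and 0.634% ± 0.221 in normal samples (SD, exact permutation p = 0.9, n = 3 each). The counting rule is not given in the sources used here. Valine tRNAs resemble each other at their 5' ends, so reads that fit several anticodons may be divided among them, and the values of Val-CAC and Val-AAC are not independent measurements. By symbol, the RefSeq gene table (GRCm38.p6) lists 11 genes for Val-CAC, 8 for Val-AAC and 3 for Val-TAC.

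**Figure D2:**
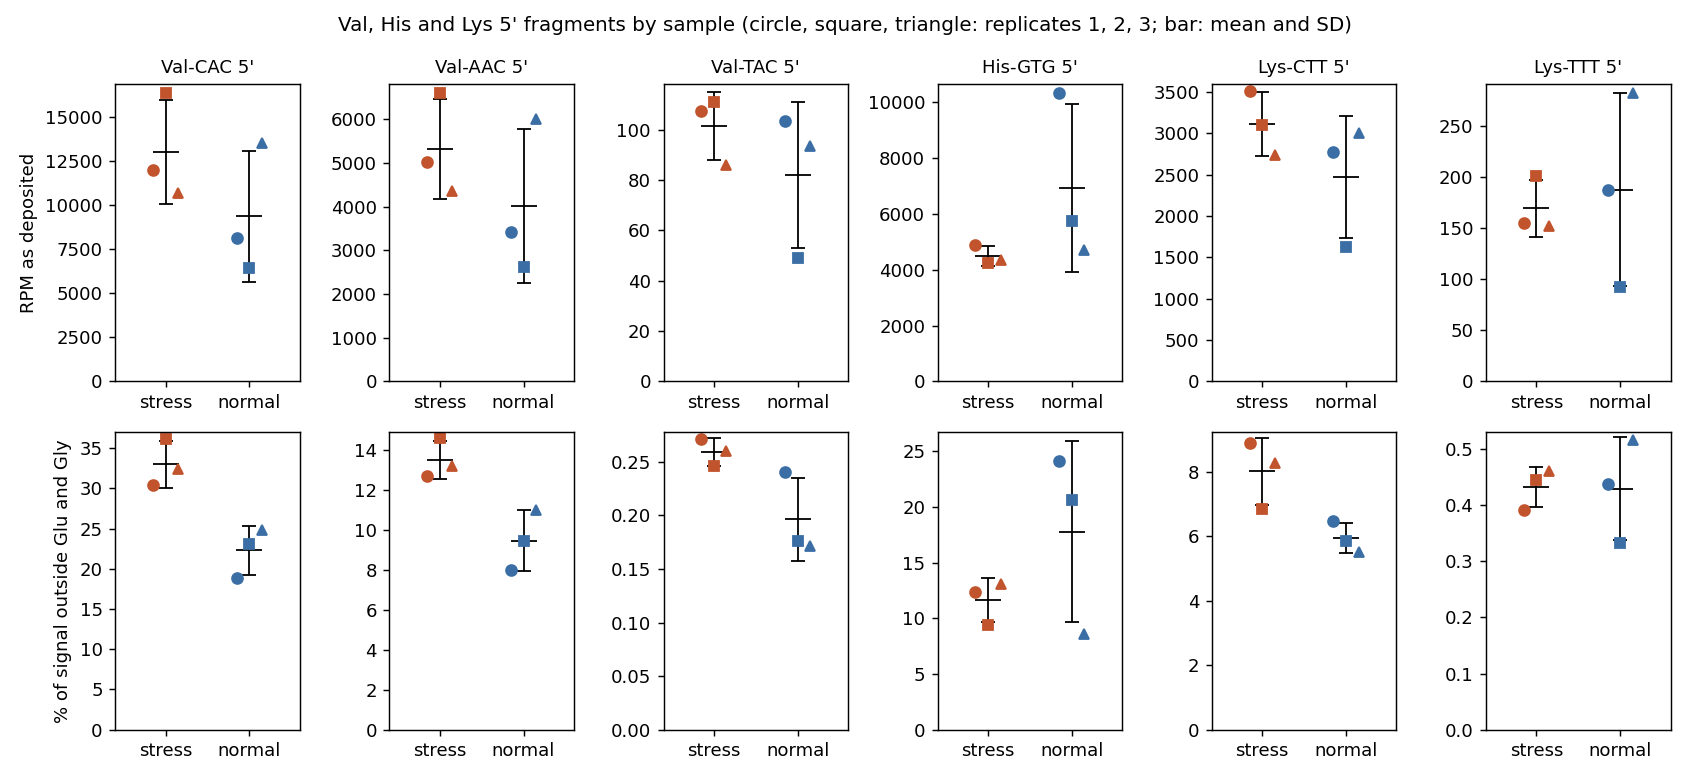
Level of each of the 6 fragments by sample, as deposited RPM (upper row) and as percentage of the signal outside Glu and Gly (lower row). Points are samples, and bars are the mean and SD of 3 samples per group. The stress and normal points separate for the 3 Val fragments and Lys-CTT in the lower row and for none of the 6 in the upper row.

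Histidine had the opposite sign to valine, and outside Glu and Gly its highest sample was 2.79 times its lowest, the widest range of the 6 fragments on that scale. His-GTG, the only histidine 5' fragment among these rows, had 4883, 4243 and 4331 RPM in stress replicates 1 to 3, against 10334 RPM, 5738 RPM and 4706 RPM in normal replicates 1 to 3. Normal replicate 1 stood far above the other 5 samples, and normal replicate 3 lay within the stress range. With Glu and Gly left out it took 12.4%, 9.38% and 13.1% in stress samples, against 24.1%, 20.6% and 8.63% in normal samples. Normal replicate 3 was then the lowest of all 6 samples, below every stress sample, while normal replicates 1 and 2 were the highest. The log2 fold change was −0.55 ± 0.29 (SE) as deposited and −0.50 ± 0.38 outside Glu and Gly, and neither passed in limma (adjusted p = 0.49 and 0.50). Without normal replicate 1 the deposited change was −0.22, and without normal replicate 3 it was −0.78 (limma adjusted p = 0.79 and 0.068). On the scale outside Glu and Gly these became −0.21 and −0.95 (limma adjusted p = 0.71 and 0.097). RefSeq lists 10 genes for His-GTG by symbol.

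The ratio of Val to His 5' signal needs no total. It was 3.50, 5.44 and 3.50 in stress samples, against 1.13, 1.59 and 4.17 in normal samples. Normal replicates 1 and 2 were low and normal replicate 3 lay among the stress samples (log2 difference 1.05, exact permutation p = 0.3, n = 3 each).

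Lysine 5' fragments were less abundant, and nearly all of their signal came from 1 acceptor. Lys-CTT had 3507, 3096 and 2734 RPM in stress samples, against 2769.8, 1628 and 3008 RPM in normal samples. Its part of the signal outside Glu and Gly was 8.89%, 6.85% and 8.28% in stress samples, against 6.46%, 5.85% and 5.52% in normal samples. The groups overlapped as deposited, and outside Glu and Gly they were separated by a narrow gap between stress replicate 2 and normal replicate 1. The log2 fold change was 0.42 ± 0.22 (SE) outside Glu and Gly and 0.38 ± 0.35 as deposited (limma adjusted p = 0.34 and 0.70). Without normal replicate 2 the deposited value was 0.10 (limma adjusted p = 0.87). Lys-TTT had 154.6, 200.8 and 151.9 RPM in stress samples, against 188, 92.7 and 281 RPM in normal samples. It took 0.392%, 0.444% and 0.460% outside Glu and Gly in stress samples, against 0.438%, 0.333% and 0.516% in normal samples. The stress samples lay inside the normal range on both scales (log2 fold change 0.03 ± 0.28 outside Glu and Gly, −0.02 ± 0.65 as deposited, SE, limma adjusted p = 0.96 and 0.98). The standard error on either scale leaves room for differences as large as those of the Val fragments.

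All lysine 5' signal together took 8.44% ± 1.03 outside Glu and Gly in stress and 6.37% ± 0.462 in normal samples, without overlap (SD, n = 3 each, exact permutation p = 0.1, adjusted p = 0.42). Lys-CTT made up 94.8% ± 0.936 of it in stress and 93.2% ± 1.63 in normal samples (SD, exact permutation p = 0.2, n = 3 each). The ratio of Lys-CTT to Lys-TTT ranged from 15.4 to 22.7 in stress and from 10.7 to 17.6 in normal samples, a far wider spread than that of the 2 common valine acceptors. RefSeq lists 24 genes for Lys-CTT and 2 for Lys-TTT by symbol. The ratio of Val to Lys 5' signal was 4.67, 6.995 and 5.25 in stress samples, against 3.93, 5.29 and 5.97 in normal samples, with overlap (exact permutation p = 0.6, n = 3 each).

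**Figure D3:**
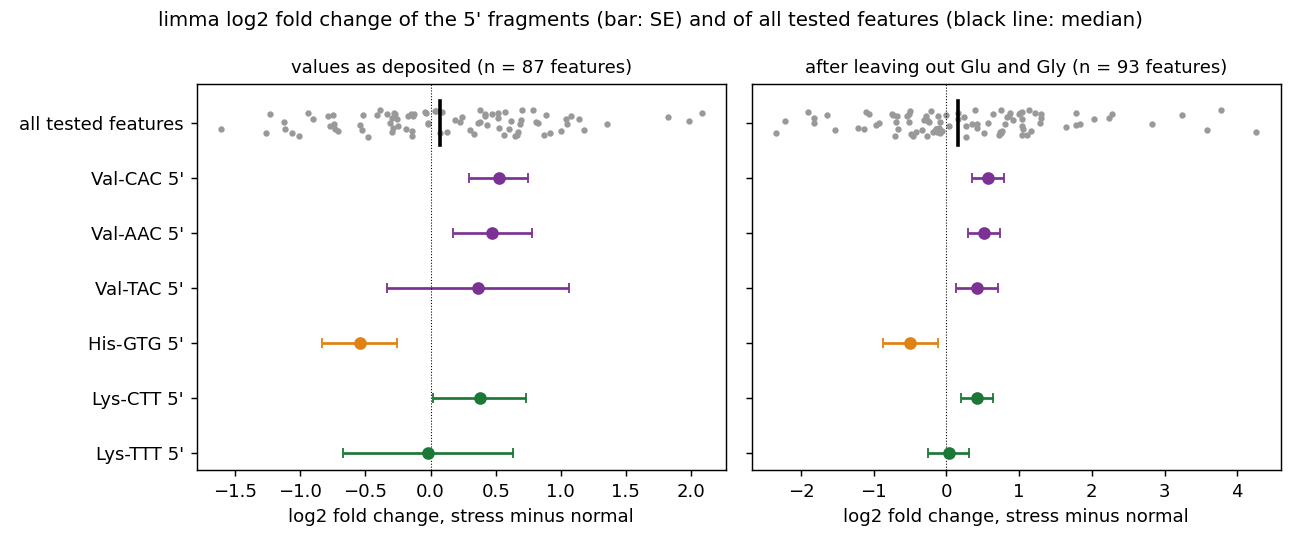
Log2 fold change, stress minus normal, of the 6 fragments with SE bars, for deposited values (left) and after leaving out Glu and Gly (right). Grey points are all tested features, the 6 included, at heights without meaning, with a black line at their median. The 3 Val fragments and Lys-CTT lie to the right of that median (0.07 left and 0.16 right), and His-GTG lies to its left on both scales.

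As a group, all 6 fragments passed the filter on low values on both scales, and 0 of 6 passed the limma threshold on either. The same held for 0 of the 87 features tested as deposited (0.00% higher and 0.00% lower in stress) and 0 of the 93 tested outside Glu and Gly (0.00% in each direction). At an unadjusted limma p under 0.05 there were 8 of 87 features (9.20%), with Val-CAC as the member among them. Outside Glu and Gly there were 14 of 93 (15.1%), with Val-CAC and Val-AAC as members. These counts moved when single samples were left out. As deposited the count was 3 without stress replicate 1, 7 without stress replicate 2, and 5 without stress replicate 3 or normal replicate 1. It was 15 without normal replicate 2 and 21 without normal replicate 3. With Glu and Gly left out it was 6, 14 and 5 without stress replicates 1 to 3. Without normal replicates 1 to 3 it was 12, 8 and 19. The stress samples lay above all normal samples for 0 of the 6 as deposited, where 6.90% of all features did so, and for 4 of the 6 outside Glu and Gly (the 3 Val fragments and Lys-CTT), where 16.1% did so. Since Val-CAC and Val-AAC moved together, and all shares have a common total, these 4 are not separate observations. None of the 6 lay below all normal samples, against 1.15% of features as deposited and 3.23% outside Glu and Gly. The median log2 fold change of the 6 was 0.37 as deposited and 0.42 outside Glu and Gly, beside 0.07 and 0.16 over all tested features. The filter is looser outside Glu and Gly, so percentages of all features on the 2 scales rest on unlike sets. Over the 72 of the 93 features that also passed it as deposited, a set chosen after seeing the data, the median was 0.09. As deposited, the medians of the 6 and of all features were 0.07 and −0.12 without normal replicate 2, and 0.52 and 0.36 without normal replicate 3. Left-out samples moved the median of all features outside Glu and Gly between 0.03 (without normal replicate 1) and 0.40 (without stress replicate 3), where the 6 had 0.43 and 0.41, so without stress replicate 3 the medians of the 6 and of all features were nearly equal. With normal replicate 3 left out, 2 of the 87 deposited features (2.30%) were called higher in stress and 0 lower (0.00%). Val-CAC was one of them, and the other was the Glu-CTC 3' fragment, named after its value was seen.

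A ratio to the other tRNAs, chosen after seeing the data like the ratios between isotypes, restated the Val and Lys shares in another form. It set each isotype against the summed signal of all features outside Glu, Gly, Val, His and Lys, which was 13731, 14543 and 10624 RPM in stress samples and 17815, 11219 and 26816 RPM in normal samples. The log2 ratio for Val was 0.32, 0.67 and 0.51 in stress samples, against −0.61, −0.30 and −0.45 in normal samples. The groups did not overlap, and the difference was 0.95 (exact permutation p = 0.1, n = 3 each, adjusted p = 0.42). For Lys the log2 ratio was −1.91, −2.14 and −1.88 in stress samples, against −2.59, −2.70 and −3.03 in normal samples, a difference of 0.80 without overlap (exact permutation p = 0.1, n = 3 each, adjusted p = 0.42). For His it was −1.49, −1.78 and −1.29 in stress samples, against −0.79, −0.97 and −2.51 in normal samples (difference −0.10, exact permutation p = 1, n = 3 each). The sum of those other features was itself highest in normal replicate 3. As a share outside Glu and Gly that sum was 32.2% to 34.8% in stress and 40.3% to 49.2% in normal samples, without overlap. Part of each Val and Lys ratio difference comes from it, so the ratios are not separate support.

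Fragments from the other end of the same tRNAs were rare. The table holds 9 of them for Val, His and Lys, either 3' fragments or CCA fragments, which end in the CCA tail added to every mature tRNA. 5' fragments made up 99.9% of the valine signal in each group (99.90% ± 0.0237 in stress and 99.93% ± 0.0106 in normal, SD, n = 3 each, exact permutation p = 0.2). The share for histidine was 100% in 5 samples and 99.98% in stress replicate 3 (exact permutation p = 1, n = 3 each). For lysine it was 98.6%, 98.6% and 99.4% in stress samples, against 96.0%, 96.8% and 98.9% in normal samples, with overlap through normal replicate 3 (exact permutation p = 0.3, n = 3 each). Of the 7 such fragments tested as deposited, 0 passed in limma. Their median log2 fold change was 0.52, beside 0.38 for all 43 tested 3' and CCA fragments and 0.07 for all features.

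Among these rare fragments the CCA and 3' classes of lysine had opposite signs, and the difference between the classes was not tested. Lys-TTT CCA, the most abundant fragment of the other end of lysine, had 35.5, 32.5 and 6.84 RPM in stress samples, against 104, 42.9 and 20.9 RPM in normal samples, with overlap (log2 fold change −1.13 ± 0.74, SE, limma adjusted p = 0.54). Lys-CTT CCA had 3.76, 5.48 and 2.18 RPM in stress samples, against 17.8, 10.7 and 11.7 RPM in normal samples. All its stress samples lay below the normal samples, but it did not pass in limma (−1.61 ± 0.70, SE, adjusted p = 0.33). Lys-TTT 3' had 7.53, 6.15 and 7.26 RPM in stress samples, against 1.48, 1.71 and 3.48 RPM in normal samples. There the stress samples lay above the normal ones, again without passing (1.35 ± 0.68, SE, limma adjusted p = 0.49). Lys-CTT CCA and Lys-TTT 3' stand at 1.48 to 17.8 RPM, so few reads carry them, and their log2(RPM + 1) fold changes understate ratios. Both were named after their values were seen. As deposited, stress samples lay above all normal samples for 1 of the 7 tested fragments from the other end. They lay below for 1 of the 7, against 6.90% above and 1.15% below over all features. For valine, Val-TAC 3' was the most abundant fragment of the other end, with 10.9, 18.1 and 14.5 RPM in stress samples against 5.43, 5.13 and 13.05 RPM in normal samples (0.89 ± 0.72, SE, limma adjusted p = 0.63). The histidine CCA fragment was listed at 0 except in stress replicate 3, at 0.990 RPM.

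**Figure D4:**
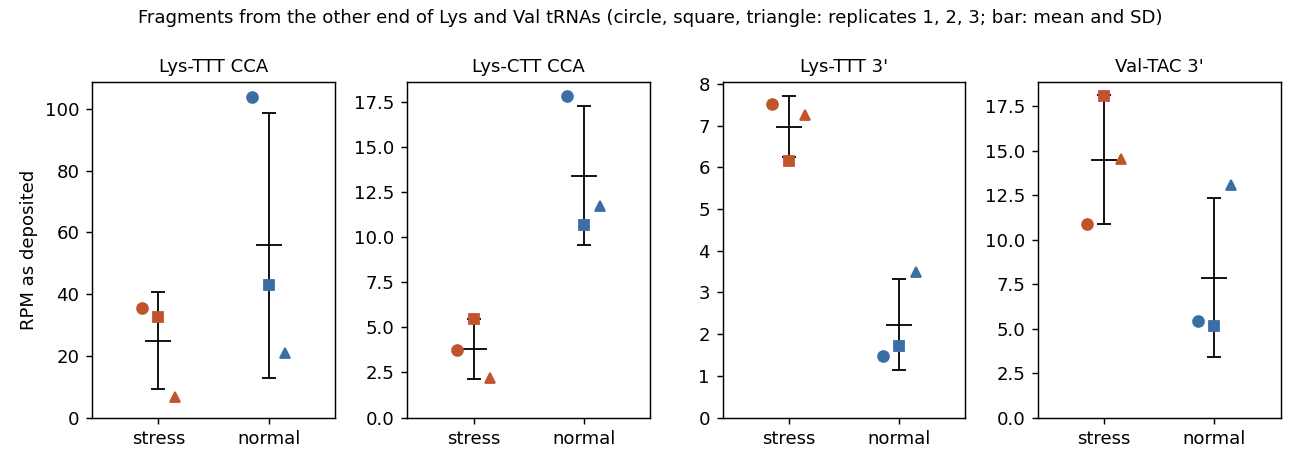
RPM as deposited of the 4 fragments named from the other end of lysine and valine tRNAs, by sample, with mean and SD of 3 samples per group. Lys-CTT CCA lies lower in all 3 stress samples (2.18 to 5.48 RPM) than in normal samples (10.7 to 17.8 RPM), and Lys-TTT 3' higher (6.15 to 7.53 RPM against 1.48 to 3.48 RPM). Lys-CTT CCA and Lys-TTT 3' were named after their values were seen.

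Other 5' fragments did not share the sign of Val and Lys on balance. Of the 32 tested as deposited from isotypes other than Val, His, Lys, Glu and Gly, 10 had a positive and 22 a negative log2 fold change, with a median of −0.28 and 0 past the limma threshold. The 2 Glu 5' fragments lay between −0.02 and 0.07, and the 4 Gly 5' fragments between 0.03 and 0.79, again with 0 past it. The profiles nearest to the summed Val signal, by root mean square difference of centred log2 shares outside Glu and Gly over the 6 samples, were those of Cys-GCA 5' (0.21), Asp-GTC 5' (0.21) and Asp-GTC 3' (0.23), among 66 candidates with a median of 0.71. For Lys the nearest were Asp-GTC 3' (0.18), Asp-GTC 5' (0.25) and Arg-CCG 3' (0.28), with a median of 0.74. For His they were Gln-CTG 5' (0.32), Pro-CGG 5' (0.42) and Pro-TGG 5' (0.42), with a median of 1.05. These are descriptions over samples that share a library and a total with the fragments themselves.

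The miRNA table of the same libraries gave a check of the cell type. Male germ cell miRNAs, such as miR-34c and the miR-465 and miR-743 groups, were present for all 10 listed markers and took 0.709% to 0.861% of the miRNA reads in stress and 0.675% to 0.883% in normal samples. The shares of 3 marker lists of other cells did not overlap between the groups. Epithelial miRNAs (6 of 6 present) took 2.91% to 3.22% in stress and 1.24% to 1.75% in normal samples. Stromal, smooth muscle and endothelial miRNAs (6 of 6 present) took 0.934% to 1.09% in stress and 0.268% to 0.496% in normal samples. Leukocyte miRNAs (5 of 5 present) took 0.135% to 0.189% in stress and 0.036% to 0.081% in normal samples, and red blood cell miRNAs (3 of 3 present) 0.027% to 0.082% in stress and 0.034% to 0.102% in normal samples. No marker was at 0 in all samples. The epithelial, stromal and leukocyte shares separated the groups, as did the Val and Lys shares outside Glu and Gly, and their part in those differences was not tested.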

How the data were processed

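Sperm small RNA of 3 stress and 3 normal samples was grouped by the disease-state labels, with replicate numbers from the titles. TRIzol extraction and an Illumina TruSeq kit were used, per the labels' protocols, and Bowtie, per the submitters' processing notes. The Bowtie version, genome build, annotation and rule for counting reads were not given in the sources used here. In the deposited files, the authors gave the tsRNA table in RPM, scaled to 1000000 over its own rows, and the miRNA table in expected counts, which served here only for marker shares and library ratios. The deposited piRNA table was not used here.

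The tsRNA depth was estimated as 1000000 divided by the step, of at least 0.3 RPM, that turned most values under 20 RPM into whole multiples (tolerance 0.003). That held for 16 to 26 of 52 to 67 such values per sample, so no count test was run and no counting interval is given.

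The whole tsRNA table was fitted with limma 3.58.1 (trend, R 4.3.3) on log2(RPM + 1), keeping rows with 1 RPM or more in 3 or more samples. Outside Glu and Gly the trend pulls each standard error toward the spread of all tested rows at a like level. As deposited each standard error is that trend value alone. P-values were two-sided and adjusted by Benjamini-Hochberg over all rows tested, with a threshold of 0.05. The fit was repeated, with the same filter and pseudocount, after Glu and Gly rows were removed and each sample was rescaled to 1000000. Rescaling raises every value, so the filter is looser there. Of the 93 rows it kept, 72 also passed it as deposited. Shares and ratios were compared with two-sided exact permutation tests (scipy 1.17.1). On simulated data for 87 features, the deposited-scale fit recovered 68.5% of changes of 2 log2 units and called 1.27% of unchanged features.

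Same-numbered samples did not deviate together (correlations of 0.19, −0.36 and −0.23 for numbers 1 to 3), so the numbers were not used as pairs. All 6 fragments were described, with the most abundant 3' or CCA fragment and the 3 nearest profiles of each isotype; 2 more lysine fragments were named after their values were seen. The members and lists were chosen with earlier results of these data known.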

Additional observations from a re-analysis of the deposited data

How the results depend on the processing

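The limma fits made 0 calls under every alternative tried except 2 settings. As deposited, leaving out each sample gave 0 to 2 calls, with the 2 calls coming without normal replicate 3. Outside Glu and Gly, limma without trend gave 1 call, the Leu-AAG 3' fragment, and leaving out each sample gave 0 calls. Alternatives were pseudocounts of 0.1 and 10, no filter, a filter of 10, centring on the sample median, no trend, a replicate block and leaving out each sample, plus, chosen after seeing the data, the features of the deposited scale and the ratio to other tRNAs. With the replicate block the count of calls was 0 on both scales, and Val-CAC was at 0.52 and 0.57 (limma adjusted p = 0.79 as deposited and 0.32 outside Glu and Gly); not every sample correlated best with its own number. No filter, a filter of 10, no trend and the replicate block leave each fold change as it is, so they could not turn a sign. The 3 Val fragments, His-GTG and Lys-CTT kept their sign in all 14 alternatives on each scale. The features of the deposited scale leave each fold change as it is too. Outside Glu and Gly the groups did not overlap for the 3 Val fragments and Lys-CTT. There left-out samples and other pseudocounts could not turn their sign either, so only centring on the sample median could have done so. Lys-TTT did not: as deposited (−0.02) it ran from −0.45 to 0.34 when single samples were left out and was 0.0299 outside Glu and Gly, where leaving out single samples gave −0.14 to 0.18. The summed Val and Lys shares outside Glu and Gly kept their sign throughout. With left-out samples, medians or the block it could not turn, since the groups did not overlap. The summed share of all 6 in all tsRNA signal ran from −0.00797 to 0.546 percentage points without single samples. The Val-TAC part of valine turned to 0.027 points as a difference of medians and ran from −0.155 to 0.051 points without single samples, and the histidine 5' share differed by 0 points as a difference of medians and by −0.011 to 0 without single samples. The cause of these shifts was not tested. Exact tests cannot go below p = 0.1 for 3 samples against 3, 0.2 once a sample is left out, or 0.25 for 3 pairs.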
